A study of Mus musculus with 29 samples.

Results

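The conjugating detoxification enzymes are described here as the genes of 4 families, chosen by their symbols: the glutathione S-transferases (Gst), the microsomal glutathione S-transferases (Mgst), the UDP-glucuronosyltransferases of families 1 and 2 (Ugt) and the sulfotransferases (Sult). Of 24770 genes in the table, 47 had such a symbol, and the 43 with at least 10 counts summed over all 29 libraries were kept (21 Gst, 3 Mgst, 12 Ugt and 7 Sult genes). Sult1b1, Sult1c2, Sult2a7 and Sult4a1 fell below that count. The symbols and the count minimum use no comparison between groups, but the families were picked with earlier results of these data known. Gstm3, Ugt1a9 and Ugt2b35 reached the minimum only with the counts of 1 group, calorie-restricted muscle.

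The libraries came from brown adipose tissue (BAT) and from gastrocnemius, a skeletal muscle (SkM), of male wild-type C57BL/6J mice. Control mice were sedentary and fed ad libitum. The CR (calorie restriction) group had its food lowered by 10% a week to 70% of ad libitum intake, the EX group ran on a treadmill for 1 h at 12 m/min on 5 days a week, and the CREX group had both. All interventions began at 8 weeks of age and lasted 8 weeks, and mice were killed 24 h after their final run, following a fast of 6 h. BAT was sequenced from 3 control, 4 CR, 4 EX and 4 CREX mice, and SkM from 4 control, 3 CR, 4 EX and 3 CREX mice. Libraries are separate samples by their labels, and nothing in the labels ties a BAT library to the SkM library of the same number. They held 21047242 to 24919377 counts in BAT and 23050918 to 23425284 counts in SkM, and levels are given as CPM (counts scaled to library size). A value of 3 counts in 1 library thus equals 0.110 to 0.130 CPM for BAT libraries, and 0.124 to 0.150 CPM for those of SkM. The tissue labels matched their markers: Ucp1, the uncoupling protein of brown fat, lay between 1267 and 4320 CPM in BAT and at no more than 0.149 CPM in SkM.

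Conjugation makes a foreign or endogenous compound more water-soluble by attaching a polar group to it, after which membrane pumps export the product. Gst and Mgst enzymes attach glutathione, the main thiol of the cell, and also clear products of lipid peroxidation. Ugt enzymes attach glucuronic acid in the endoplasmic reticulum and Sult enzymes attach sulfate in the cytosol, mainly in liver, where their substrates include bilirubin for Ugt, and steroids, thyroid hormone and phenols for both.

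Many Gst promoters are known for the antioxidant response element, which the transcription factor NRF2 binds, and several conjugating genes for the xenobiotic response element of the aryl hydrocarbon receptor. As examples, 3 promoters that carry the core of one of these elements are printed, so they do not stand for the members as a whole. They belong to genes whose values are given below: Gsta3 (chr1:21240335-21240584, plus strand), Mgst1 (chr6:138140277-138140526, plus strand) and Mgst3 (chr1:167393842-167394091, minus strand). Each is the 250 bases before a RefSeq start site on GRCm38.p6, 5′ to 3′. Capitals mark the antioxidant response element core in Gsta3 and Mgst1 (TGACNNNGC, or GCNNNGTCA on the other strand) and the xenobiotic response element core in Mgst3 (GCGTG).
Gsta3: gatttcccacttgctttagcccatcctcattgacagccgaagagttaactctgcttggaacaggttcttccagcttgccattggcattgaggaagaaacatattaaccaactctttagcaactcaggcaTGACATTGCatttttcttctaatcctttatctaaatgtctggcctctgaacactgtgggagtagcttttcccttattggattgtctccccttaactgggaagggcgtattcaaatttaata
Mgst1: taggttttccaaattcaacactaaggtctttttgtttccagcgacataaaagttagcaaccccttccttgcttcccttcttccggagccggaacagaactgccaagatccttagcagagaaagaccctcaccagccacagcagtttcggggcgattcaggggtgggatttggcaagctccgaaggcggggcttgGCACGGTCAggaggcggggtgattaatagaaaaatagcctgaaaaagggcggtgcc
Mgst3: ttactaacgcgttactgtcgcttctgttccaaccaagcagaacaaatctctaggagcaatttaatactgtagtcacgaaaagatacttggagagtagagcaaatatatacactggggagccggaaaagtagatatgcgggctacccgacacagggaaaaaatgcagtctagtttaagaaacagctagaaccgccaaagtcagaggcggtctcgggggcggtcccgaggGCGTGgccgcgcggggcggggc

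The marked bases begin at position -121 in Gsta3, -56 in Mgst1 and -22 in Mgst3, counted from the start site. Promoter windows were found for 40 of the 43 members (51 windows, since some genes have several start sites). On either strand, the antioxidant response element core was present in 4 of the 51 windows, those of Gsta3, Gstm5, Gstm7 and Mgst1, and in 10.2% of 32851 windows of all mouse genes. The xenobiotic response element core (GCGTG, or CACGC on the other strand) was present in 9 of the 51 windows, from 8 genes (Gsta2, Gstm1, Gstm5, Gstp1, Mgst3, Sult1d1, Sult2b1 and Ugt1a5), and in 28.2% of all windows. The paired glucocorticoid response element was in none of the 51 windows and in 3 windows of all genes. These shares are a description of letters in short windows and not of binding. The windows of Sult1a1, Gstt1, Mgst2 and Gstm2, each higher under CR in results below, held none of these elements. Neither did another window of Mgst1.

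The genes sit in clusters. The Gstm genes lie side by side on chromosome 3 (GRCm38) from 107895854, the start of Gstm5, to 108045179, the end of Gstm4, and the Gstt genes on chromosome 10 from 75774117, the start of Gstt3, to 75837419, the end of Gstt2. Ugt1a1, Ugt1a5, Ugt1a6a, Ugt1a7c and Ugt1a9 share their end at 88220002 on chromosome 1, because their transcripts join different first exons to the same last exons. Reads from these shared exons, and from close copies such as Gstp1 and Gstp2 or Gstt2 and Gstt4, were divided among genes by the counting software, so the split within such a group is uncertain.

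Levels of the members differed widely between the tissues. Per kilobase of exon, Mgst1, a membrane-bound glutathione transferase and peroxidase, was the highest member over all BAT libraries (164 CPM per kb), followed by Gstm1 (101), Gstp1 (69.1), Mgst3 (54.5) and Gstz1 (50.4). In SkM the order was Mgst3 (182 CPM per kb), Gstm1 (144), Gstp1 (103), Gstp2 (52.2) and Gstm5 (48.9). Mgst3 is another membrane-bound glutathione transferase, Gstm1, Gstm5, Gstp1 and Gstp2 are cytosolic transferases, and Gstz1, also called maleylacetoacetate isomerase, acts in tyrosine breakdown. Summed over all 43 members, control mice had 1057 ± 49.8 CPM in BAT (SD, n = 3) and 925 ± 111 CPM in SkM (SD, n = 4). Gst genes made up most of this sum, with 703 ± 36.6 CPM in control BAT, against 324 ± 21.4 for Mgst, 23.3 ± 4.92 for Sult and 7.13 ± 1.58 for Ugt genes.

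Between the tissues of control mice, 20 of 25 members tested differed (edgeR's quasi-likelihood test, adjusted p under 0.05 and fold change above 1.5, the definition of a DEG used throughout), 15 higher in BAT and 5 higher in SkM. Of all 13797 genes tested, 60.0% were DEGs between the tissues, 29.8% higher in BAT and 30.2% higher in SkM, so the members' count stands beside a high background. Mgst1 lay at 261, 283 and 302 CPM in BAT and at 43.3, 42.4, 34.1 and 39.6 CPM in SkM (log2 difference 2.80 ± 0.11 SE, adjusted p = 5.16e-10). Gstz1 was at 189, 199 and 229.6 CPM in BAT and at 37.9, 33.0, 31.3 and 32.9 CPM in SkM (2.58 ± 0.10, adjusted p = 7.73e-10).

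The opposite order held for Mgst3, with 37.9, 43.1 and 37.4 CPM in BAT against 267, 214, 214 and 184 CPM in SkM (-2.50 ± 0.14, adjusted p = 1.19e-08). Gstp2 had 4.51, 6.48 and 5.14 CPM in BAT against 55.1, 50.7, 55.6 and 46.5 CPM in SkM (-3.30 ± 0.14, adjusted p = 1.04e-09). Its neighbour Gstp1 differed less, with 89.0, 90.3 and 88.6 against 171, 168, 167 and 132 CPM (-0.86 ± 0.11, adjusted p = 1.58e-05). The tissues did not overlap in any of these 5 genes, as in 74.5% of all genes tested.

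The other 2 members higher in SkM were Gstm5, with 22.7, 20.0 and 21.4 CPM in BAT and 68.7, 59.4, 55.9 and 45.1 CPM in SkM (-1.45 ± 0.13, adjusted p = 1.21e-06), and Gstm1, with 129, 118 and 127 CPM in BAT and 203, 175, 208 and 157 CPM in SkM (-0.61 ± 0.11, adjusted p = 0.000432). Gstm1 fell under the fold minimum without BAT control 2 (-0.57), SkM control 1 (-0.56) or SkM control 3 (-0.55). The remaining members higher in BAT were Gsta3, Gsta4, Gstm4, Gstm6, Gsto1, Gsto2, Gstt1, Gstt2, Mgst2, Sult1a1, Ugt1a6a, Ugt1a6b and Ugt1a7c. Sult1a1 (0.61) fell under the fold minimum without BAT control 1 (0.45), SkM control 2 (0.53) or SkM control 3 (0.58). Ugt1a6b, which has no count in any control SkM library, was at least 28.9-fold higher in BAT, taking 3 counts per library as the limit in SkM. Mgst2, a microsomal glutathione transferase that can also make leukotriene C4, stood at 2.20, 2.67 and 3.00 CPM in BAT and at 0, 0, 0.0977 and 0 CPM in SkM. Gstt3 and Gstm2 differed by less than 1.5-fold (0.49 and -0.37 on the log2 scale, adjusted p = 0.0187 and 0.0269), and Gstk1, Gstm7 and Sult5a1 did not pass the test (0.08, 0.30 and -0.69, adjusted p = 0.669, 0.114 and 0.0562).

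**Figure D1:**
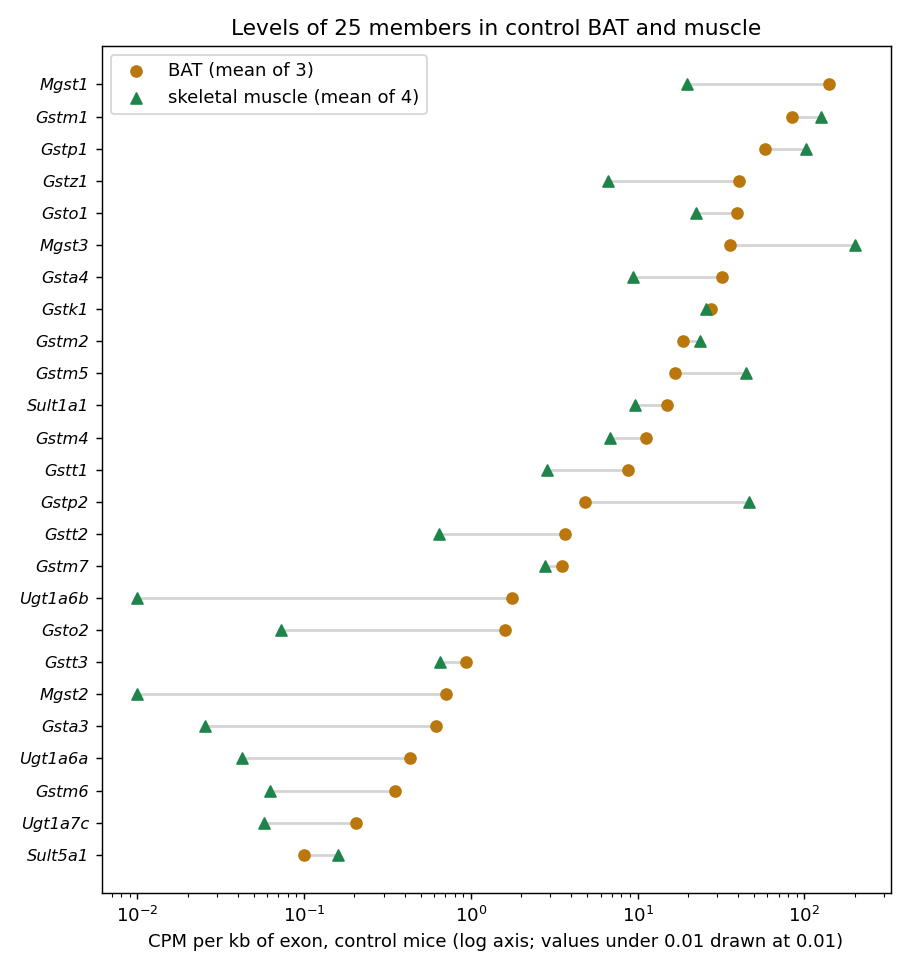
Mean level of 25 members in BAT (circles, 3 mice) and skeletal muscle (triangles, 4 mice) of control mice, in CPM per kb of exon on a log axis. Mgst3 and Gstp2 lie far to the right in muscle, Mgst1 and Gstz1 in BAT.

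CR against control in BAT asks how food restriction alone changed the tissue. Of 25 members tested, 6 were upregulated and none downregulated: Gstt2, Mgst3, Sult1a1, Gsta3, Gstt1 and Mgst2. Over all 13323 genes tested, 10.7% were DEGs (3.87% higher and 6.86% lower in CR). Tested members had a median log2 fold change of 0.51, beside 0.00453 for all genes tested, and 23 of 25 members had a value above 0, beside 50.6% of all genes tested. The sum over all 43 members went from 1057 ± 49.8 CPM to 1513 ± 82.6 CPM (SD, n = 3 and 4). In bulk tissue, more cells of a type and more RNA per cell cannot be told apart.

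Gstt2, a theta-class transferase that acts on sulfate esters and peroxides, had 13.1, 15.2 and 17.6 CPM in control and 38.6, 29.7, 41.4 and 40.8 CPM in CR BAT. The groups did not overlap, as in 33.8% of all genes tested, and the log2 fold change was 1.27 ± 0.13 SE (adjusted p = 0.000243). Gstt1, from the same cluster, which also conjugates small halogenated compounds, went from 15.5, 11.7 and 12.9 CPM to 21, 20.5, 22.7 and 25.6 CPM (0.72 ± 0.11, adjusted p = 0.00162). All 4 CR libraries of both genes lay above all 3 controls. Gsta3, an alpha-class transferase abundant in mouse liver, where it detoxifies aflatoxin, that carries the antioxidant response element core printed above, had 2.92, 2.60 and 2.55 CPM in control and 5.71, 8.44, 6.97 and 5.74 CPM in CR BAT (1.29 ± 0.17, adjusted p = 0.000840).

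Among the membrane-bound enzymes, Mgst3 rose from 37.9, 43.1 and 37.4 CPM to 65.3, 76.0, 66.6 and 77.7 CPM (0.83 ± 0.09, adjusted p = 0.000360). Mgst2 rose from 2.20, 2.67 and 3.00 CPM to 5.20, 8.65, 6.89 and 5.90 CPM (1.31 ± 0.20, adjusted p = 0.00169). For Sult1a1, the main phenol sulfotransferase, control libraries held 27.4, 17.9 and 22.2 CPM and CR libraries 64.3, 73.4, 54.8 and 69.8 CPM (1.52 ± 0.16, adjusted p = 0.000749). No CR library reached down to the highest control in any of the 3 genes, and Sult1a1 had the largest log2 fold change of the 25 members.

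A further 10 members passed the test with a fold change below 1.5, all of them higher under CR: Gstz1, Gstm5, Gstm1, Gstm2, Mgst1, Gstm4, Gstp1, Gsta4, Gstt3 and Gstm7, with log2 fold changes from 0.30 (Gstm4) to 0.55 (Gstm1). At any fold change 16 of 25 members were thus higher and none lower, beside 9.99% of all genes higher and 10.9% lower. Gstz1 went from 189, 199 and 229.6 CPM to 284, 295, 309 and 324 CPM, Mgst1 from 261, 283 and 302 CPM to 348, 385, 369 and 359 CPM, and Gstm1 from 129, 118 and 127 CPM to 169, 218, 177 and 179 CPM. Gstp1 went from 89.0, 90.3 and 88.6 CPM to 109.8, 148, 109 and 119 CPM, and Gstm5 from 22.7, 20.0 and 21.4 CPM to 27.5, 29.6, 29.8 and 31.9 CPM. Each of these 5 genes was higher in every CR library than in every control. The 9 tested members that did not pass were Gstk1, Gstm6, Gsto1, Gsto2, Gstp2, Sult5a1, Ugt1a6a, Ugt1a6b and Ugt1a7c, with log2 fold changes from -0.35 (Gsto2) to 0.85 (Gstm6) and adjusted p from 0.10 to 0.976.

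All 6 DEGs kept their call under every alternative processing tried. BAT libraries differed in skeletal muscle transcripts: the score of 10 fibre markers (mean log2(CPM + 1)) ran from 0.366 to 5.70 in control and from 1.43 to 6.87 in CR libraries. With that score in a fit over all BAT groups the log2 fold changes of Mgst3 and Mgst2 were 0.83 and 1.45, and without the 3 libraries of highest score (CR 3, CR 4 and control 1) they were 0.81 and 1.28. The score of 12 hepatocyte markers was 2.12 in CR 3 and at most 0.548 in the other control and CR libraries, and with that score as a covariate the same 6 members were called. Other marker lists separated the groups as well, by their summed CPM. Those of endothelium (8 genes, 367 to 405 CPM in control and 268 to 327 CPM in CR), fibroblasts (8 genes, 261 to 328 and 157 to 188), brown adipocytes (10 genes, 6057 to 7022 and 4214 to 5115), macrophages (8 genes, 65.2 to 71.2 and 38.1 to 59.0) and lymphocytes (7 genes, 1.46 to 2.01 and 0.172 to 0.562) were lower in every CR library than in every control. The scores of the brown adipocyte markers overlapped, at 6.49 to 6.78 in control and 6.20 to 6.54 in CR. The sum of the mesothelial list (6 genes) was higher, with 1.99 to 3.33 CPM in control and 5.99 to 8.36 CPM in CR libraries. Most of that list was absent: each CR library had 4 of the 6 markers at 0, and control libraries had 3 to 5. The part of these cell types in the results was not tested.

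**Figure D2:**
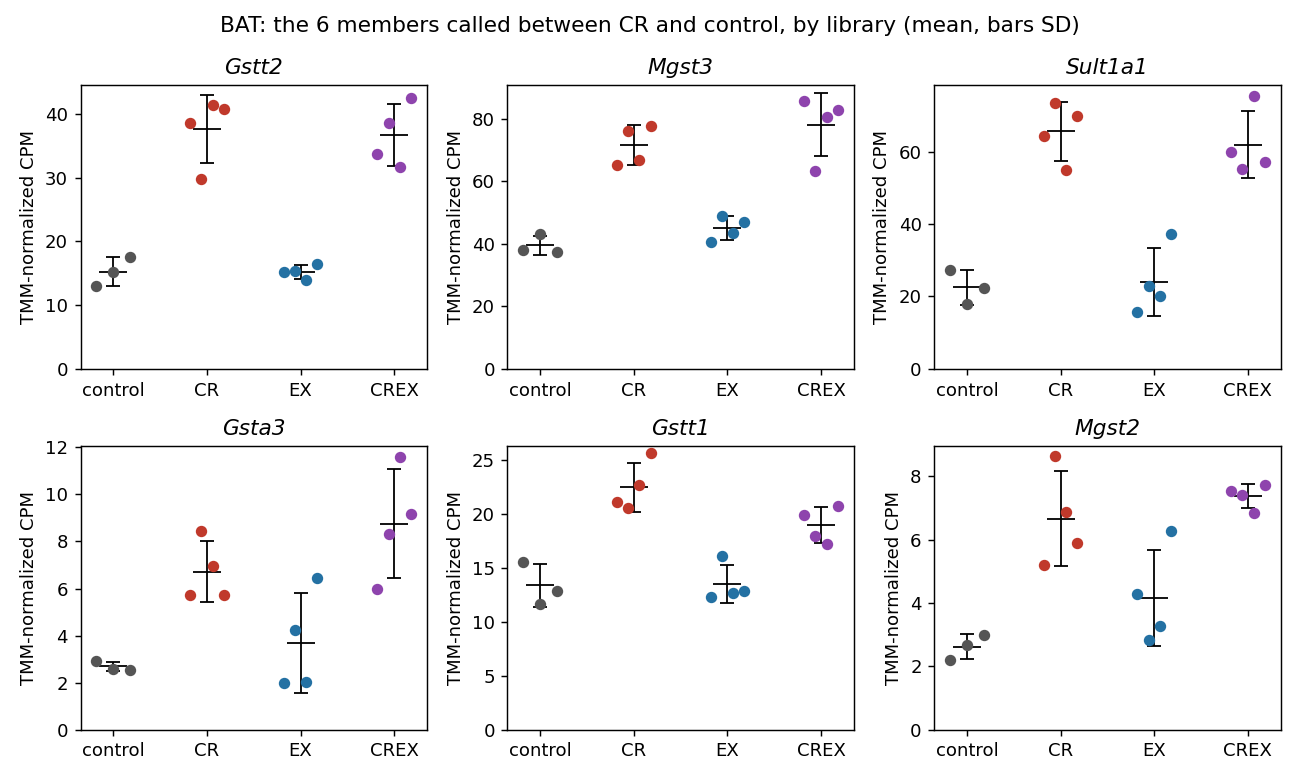
TMM-normalized CPM of the 6 members that were DEGs between CR and control in BAT, by library (points), with the group mean (line) and SD (bars), for control (n = 3), CR, EX and CREX (n = 4 each). In each panel the CR points lie above all control points. The CREX points lie above all EX points in every panel except that of Gsta3.

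CREX against EX in BAT asks what food restriction changed in trained mice. Here 5 of 25 members were upregulated and none downregulated, beside 4.48% of all 13251 genes tested that were DEGs, 1.86% upregulated and 2.63% downregulated. Gstt2, Mgst3 and Sult1a1 were called in both comparisons, which is 50.0% of the 6 DEGs under CR and 60.0% of the 5 under CREX, and the comparisons share no library. The median log2 fold change of the members was 0.22, beside -0.00204 for all genes tested.

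Gstt2 had 15.1, 15.4, 13.9 and 16.5 CPM in EX and 33.7, 38.6, 31.8 and 42.5 CPM in CREX BAT (1.23 ± 0.10 SE, adjusted p = 0.000315). Mgst3 had 40.5, 49.0, 43.4 and 47.0 CPM in EX and 85.7, 63.2, 80.6 and 82.6 CPM in CREX (0.76 ± 0.11, adjusted p = 0.00361). Sult1a1 had 15.8, 22.8, 20.0 and 37.2 CPM in EX and 59.8, 55.2, 75.4 and 57.2 CPM in CREX (1.33 ± 0.27, adjusted p = 0.0273). The groups did not overlap in these 3 genes, beside 18.1% of all genes, although EX 4 stood closer to the CREX libraries for Sult1a1.

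The other 2 DEGs were glucuronosyltransferases of the shared Ugt1a locus, which conjugate phenols. Ugt1a7c had 0.562, 0.385, 0.960 and 0.555 CPM in EX and 1.73, 1.46, 1.99 and 1.39 CPM in CREX (1.36 ± 0.29, adjusted p = 0.0220). Ugt1a6a had 2.08, 1.2, 1.66 and 2.89 CPM in EX and 3.61, 4.33, 4.25 and 3.31 CPM in CREX (0.95 ± 0.25, adjusted p = 0.0438). When all Ugt1a genes were summed before the fit, which avoids the split of their shared reads, the log2 fold change was 0.69 ± 0.20 and did not pass the test (adjusted p = 0.0684). In CR against control, the same 2 genes had log2 fold changes of 0.01 ± 0.27 and 0.69 ± 0.28 (adjusted p = 0.976 and 0.106).

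Mgst1, Gstt1 and Gsto1, an omega-class enzyme that reduces dehydroascorbate and methylated arsenic, passed the test with a fold change below 1.5 (0.30, 0.46 and 0.31, adjusted p = 0.0249, 0.0258 and 0.0435). At any fold change 8.01% of all genes passed here. Mgst1 had 303, 284, 269.7 and 317 CPM in EX and 374, 364, 375 and 368 CPM in CREX, and Gstt1 had 12.3, 16.1, 12.7 and 12.8 CPM in EX and 19.9, 17.9, 17.1 and 20.7 CPM in CREX. Both genes were higher in all CREX libraries. Mgst2 (0.79 ± 0.22, adjusted p = 0.0556) and Gsta3 (1.21 ± 0.41, adjusted p = 0.113) were DEGs under CR but did not pass here. Mgst2 had 4.28, 2.82, 3.29 and 6.27 CPM in EX and 7.55, 7.41, 6.86 and 7.72 CPM in CREX. Gsta3 had 1.99, 4.23, 2.03 and 6.46 CPM in EX and 5.97, 8.32, 11.6 and 9.15 CPM in CREX, so that the highest EX library exceeded the lowest CREX library.

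The abundant members that were not called in this comparison overlapped between the groups or lay close together. Gstz1 had 197, 231, 181 and 279.6 CPM in EX and 255, 304, 275 and 294 CPM in CREX, with EX 4 inside the range of the CREX group. Gstm1 had 115, 126, 113 and 171 CPM in EX and 145, 135, 164 and 149 CPM in CREX. Gstp1 had 116, 92.8, 98.6 and 108 CPM in EX and 109.9, 109.8, 105 and 112 CPM in CREX. EX 4 was the highest EX library for Gstz1 and Gstm1, and EX 1 for Gstp1. Gstm5 had 28.4, 21.4, 21.8 and 24.3 CPM in EX and 31.7, 25.9, 28.8 and 28.1 CPM in CREX. Gstp2 had 5.04, 6.76, 4.38 and 4.74 CPM in CR, 4.46, 5.17, 5.43 and 5.47 CPM in EX and 5.08, 5.53, 8.18 and 5.5 CPM in CREX BAT. Its value in CREX 3 stood apart. The muscle fibre score was 8.83 in that library, and 8.20 and 8.13 in EX 2 and EX 3, whose Gstp2 levels were 5.17 and 5.43 CPM. The part of muscle transcripts in these values was not tested. Gsta4 and Gstm2, DEGs in SkM only among the comparisons of CR, had 43.9 to 49.8 and 35.9 to 43.2 CPM in CREX and 37.9 to 55.3 and 32.0 to 45.8 CPM in EX BAT, so that their groups overlapped.

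Single libraries decided part of this count. It was 2 without CREX 1, CREX 3 or EX 2 and 3 without CREX 2, CREX 4 or EX 3, with Gstt2 and Mgst3 called each time. Hepatocyte transcripts were raised in EX 2 and CREX 4 (12 markers, score 2.20 and 1.51, beside 0.198 to 0.252 in the other EX and CREX libraries), and without both libraries Gstt2 and Mgst3 were the 2 DEGs. The muscle fibre score ran from 6.31 to 8.83 in CREX libraries and from 6.56 to 8.20 in EX 1, EX 2 and EX 3, but was 0.6 in EX 4. With that score in a fit over all BAT groups the 5 DEGs kept their call, and Mgst3, the member most abundant in muscle, had a log2 fold change of 0.77 (adjusted p = 0.000355). Markers of fibroblasts (283 to 991 CPM in EX, with EX 3 highest, and 182 to 205 CPM in CREX), brown adipocytes (5215 to 6224 and 3307 to 4612) and lymphocytes (1.2 to 1.88 and 0.156 to 0.583) were lower in every CREX library, and the sum of the mesothelial list (3.12 to 5.43 and 5.6 to 8.78) was higher. Each CREX library had 4 of the 6 mesothelial markers at 0, and EX libraries had 3 to 5. Their scores overlapped, at 0.376 to 0.542 in EX and 0.461 to 0.564 in CREX. The part of these cell types in the results was not tested.

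Running alone gave no DEG among the members in BAT: in EX against control 0 of 25 members passed edgeR's test (0.00% of all 13407 genes), 2 had an unadjusted p under 0.05, and DESeq2 called 0. Their log2 fold changes ran from -0.48 (Ugt1a7c) to 0.90 (Gstm6). In CREX against CR 0 of 25 members passed by either tool (0.00763% of all 13112 genes), with 6 at an unadjusted p under 0.05. The interaction, which tests whether the effect of CR differed between trained and sedentary mice, passed for 0 of 25 members (0.00% of 13922 genes), with 5 at an unadjusted p under 0.05 and 0 by DESeq2. A p that misses the threshold does not show that the effects were equal: for Gsta3, CR against control and CREX against EX gave log2 fold changes of 1.29 and 1.21 with standard errors of 0.17 and 0.41.

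**Figure D3:**
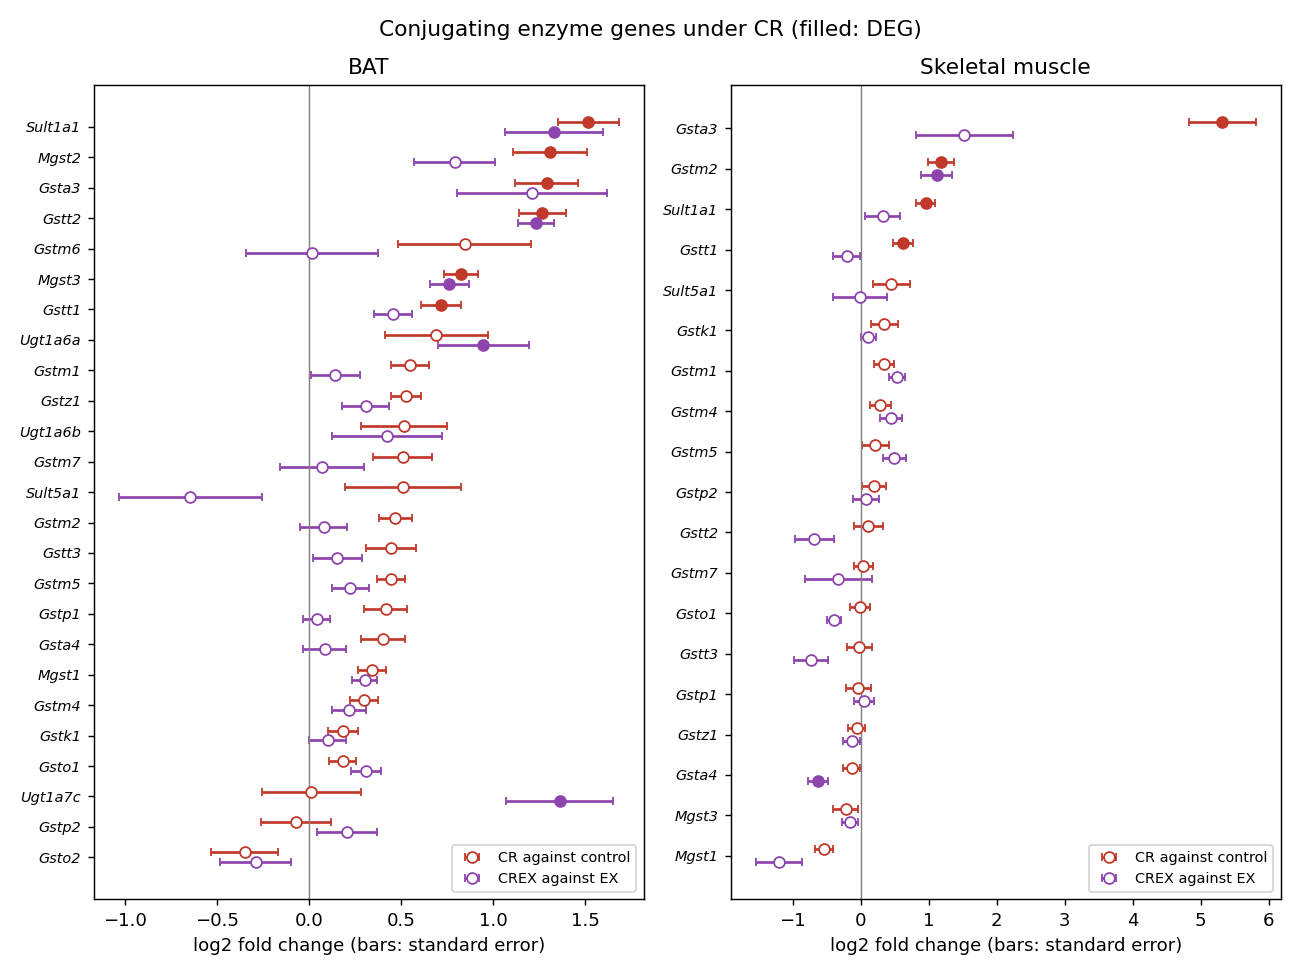
Log2 fold change with its standard error (bars) of every member tested in CR against control (red, first line of each pair) and in CREX against EX (purple), in BAT and in skeletal muscle, ordered by the CR value. Filled points are DEGs. In BAT 23 of 25 members lie above 0 in each comparison, and in muscle 12 and 9 of 19.

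In SkM 18 members could be tested in every comparison, and Gsta3, Ugt1a1 and Ugt1a6a in some. CR against control gave 4 upregulated members of 19 tested and none downregulated: Gsta3, Sult1a1, Gstm2 and Gstt1. Over all 13173 genes tested, 9.60% were DEGs (4.27% higher and 5.32% lower in CR). Tested members had a median log2 fold change of 0.19, beside 0.00499 for all genes tested, and 12 of 19 members had a value above 0. Summed over all members, SkM held 925 ± 111 CPM in control and 1045 ± 220 CPM in CR mice (SD, n = 4 and 3), a difference within the spread of the CR group. The count of DEGs was 13 without CR 1, the CR library with the lowest hepatocyte score, when low members such as Ugt2b5, Ugt1a1 and Sult2a8 were called too, and 3 without CR 2 or control 4. It was 13 with DESeq2 and 14 without the filter on low counts, and Gsta3, Gstm2 and Sult1a1 were called in all of these fits.

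Gsta3 was close to undetected in control SkM, with 0.0498, 0.300, 0 and 0.0907 CPM, and stood at 3.18, 4.75 and 5.85 CPM in CR mice. The log2 fold change was 5.32 ± 0.49 SE (adjusted p = 0.000229), and every alternative kept the call, with values from 3.87 to 6.41. Gstm2, a mu-class transferase, went from 48.3, 36.2, 43.2 and 31.9 CPM to 120.4, 81.6 and 71.3 CPM (1.18 ± 0.19, adjusted p = 0.00359). For both genes the lowest CR library was well above the highest control.

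Sult1a1 went from 17.6, 12.3, 13.9 and 14.1 CPM to 31.9, 24.4 and 28.8 CPM (0.96 ± 0.14, adjusted p = 0.00205). Gstt1 went from 4.38, 5.30, 4.25 and 3.67 CPM to 6.75, 6.72 and 6.97 CPM (0.62 ± 0.15, adjusted p = 0.0199), and its call was lost without CR 2, CR 3, control 3 or control 4 (adjusted p = 0.0588, 0.0629, 0.0621 and 0.0518). The groups did not overlap in these genes, as in 27.7% of all genes tested. Mgst1 was lower under CR, with 43.3, 42.4, 34.1 and 39.6 CPM in control and 25.2, 24.7 and 33.0 CPM in CR mice, a fold change below 1.5 (-0.54 ± 0.13, adjusted p = 0.0252). It was the 1 member to pass in this way, beside 14.0% of all genes that passed at any fold change.

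The most abundant members of SkM did not pass the test. Mgst3 had 267, 214, 214 and 184 CPM in control and 245, 155 and 169.8 CPM in CR mice (-0.22 ± 0.18, adjusted p = 0.445). Gstm1 had 203, 175, 208 and 157 CPM in control and 286, 224 and 205 CPM in CR mice (0.35 ± 0.15, adjusted p = 0.157). Gstp1, with 171, 168, 167 and 132 CPM in control and 211, 132 and 127 CPM in CR mice, had a log2 fold change of -0.04 ± 0.18 (adjusted p = 0.916). In each of these 3 genes CR 1 was the highest CR library and the groups overlapped. The same held for Gstp2, with 55.1, 50.7, 55.6 and 46.5 CPM in control and 80.4, 54.1 and 45.8 CPM in CR mice, and for Gstm5, with 68.7, 59.4, 55.9 and 45.1 CPM in control and 91.1, 60.0 and 50.8 CPM in CR mice. Gstz1 had 37.9, 33.0, 31.3 and 32.9 CPM in control and 35.9, 26.9 and 35.4 CPM in CR mice (-0.06 ± 0.13, adjusted p = 0.797). Gsta4 had 12.5, 13.1, 11.6 and 10.2 CPM in control and 11.5, 11.2 and 9.88 CPM in CR mice. The other members without a call, Gsta4, Gstk1, Gstm4, Gstm7, Gsto1, Gstt2, Gstt3 and Sult5a1, had log2 fold changes between -0.14 (Gsta4) and 0.45 (Sult5a1).

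Hepatocyte transcripts moved with the CR group in SkM. The score of the 12 hepatocyte markers was 1.70, 3.66 and 3.80 in the 3 CR libraries and between 0.0658 and 0.608 in control libraries, and no marker was at 0 in a CR library. Alb, the serum albumin gene, lay between 31.1 and 166 CPM in CR and between 0.199 and 3.45 CPM in control libraries. With the hepatocyte score in a fit over all SkM groups, Gsta3 (3.87, adjusted p = 0.0227) and Gstm2 (2.0, adjusted p = 0.00197) kept their call, while Sult1a1 (0.85, adjusted p = 0.160) and Gstt1 (0.24, adjusted p = 0.615) lost theirs. All CR libraries of SkM carried these transcripts, so the result could not be computed without them. Adipocyte markers (10 genes) scored 4.57, 3.01 and 4.60 in CR and 2.50 to 3.43 in control libraries, and with that score as a covariate Gsta3 (4.77, adjusted p = 0.00119), Gstm2 (1.10, adjusted p = 0.0209) and Sult1a1 (0.71, adjusted p = 0.0383) kept their call and Gstt1 did not (0.48, adjusted p = 0.108). By summed CPM, muscle fibre markers (134014 to 148446 CPM in control and 168037 to 235108 CPM in CR) were higher in every CR library. So were adipocyte markers (1443 to 1676 and 2132 to 3509), while endothelial (313 to 383 and 206 to 242) and fibroblast markers (391.7 to 513 and 287 to 362) were lower. The part of these cell types was not tested.

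**Figure D4:**
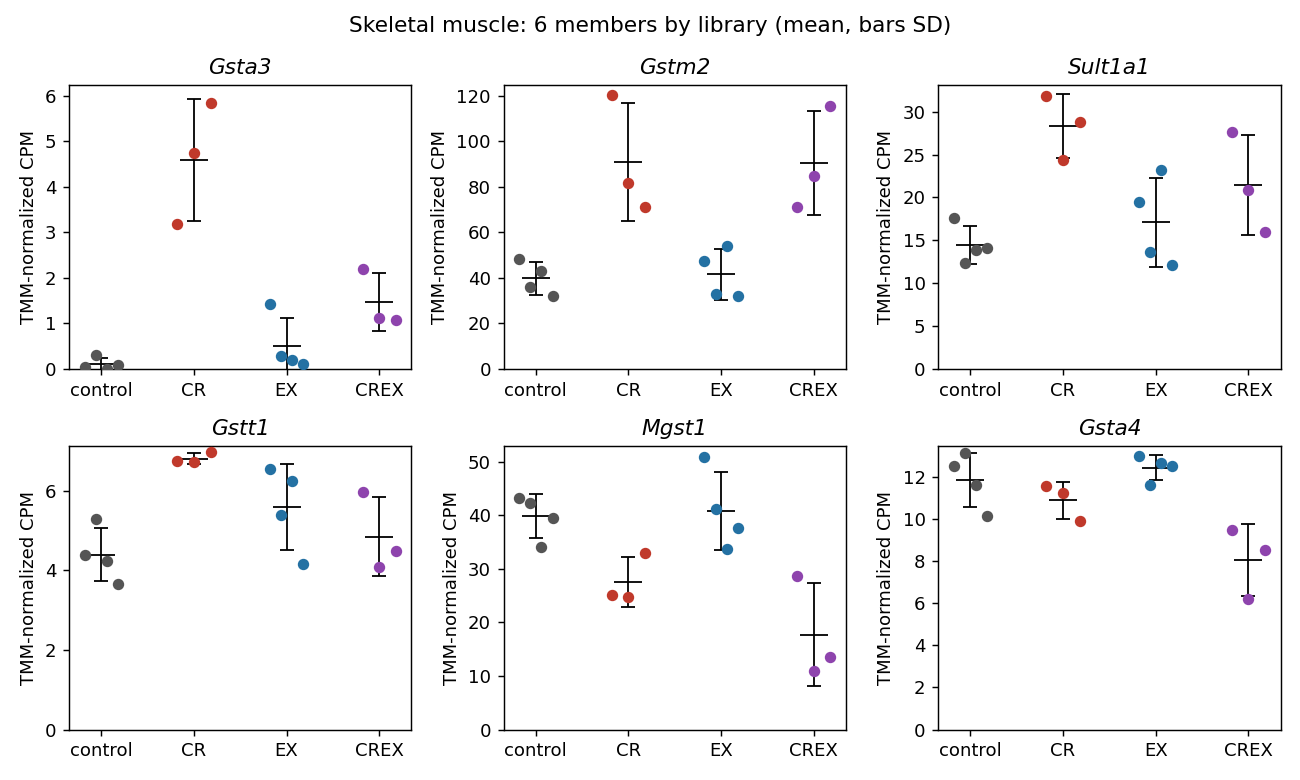
TMM-normalized CPM of 6 members in skeletal muscle by library (points), with the group mean (line) and SD (bars), for control (n = 4), CR (n = 3), EX (n = 4) and CREX (n = 3). Gsta3 lies at or below 0.300 CPM in control mice and at 3.18 CPM or more in CR mice, and Gstm2 is higher in both restricted groups.

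CREX against EX in SkM gave 1 upregulated and 1 downregulated member of 19 tested, beside 8.87% of all 13112 genes (3.70% upregulated and 5.17% downregulated). Gstm2 had 47.3, 32.8, 54.1 and 31.9 CPM in EX and 71.0, 84.8 and 116 CPM in CREX mice (1.12 ± 0.23 SE, adjusted p = 0.0201). Gsta4, an alpha-class transferase that conjugates 4-hydroxynonenal, a product of lipid peroxidation, was the member that fell, from 13.0, 11.6, 12.6 and 12.5 CPM to 9.49, 6.18 and 8.54 CPM (-0.63 ± 0.15, adjusted p = 0.0266). The groups did not overlap in either gene, as in 28.5% of all genes tested.

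Gstm1 and Gsto1 passed the test with a fold change below 1.5 (0.53 and -0.40, adjusted p = 0.0243 and 0.0346), beside 13.6% of all genes that passed at any fold change. Gstm1 had 180.1, 165, 209.8 and 172 CPM in EX and 235, 264 and 291 CPM in CREX mice. Mgst1 had 50.9, 41.1, 33.7 and 37.7 CPM in EX and 28.7, 11 and 13.5 CPM in CREX mice, a difference that did not pass (-1.21 ± 0.34, adjusted p = 0.0549) although the groups did not overlap. Gsta3 had 1.42, 0.294, 0.195 and 0.10 CPM in EX and 2.20, 1.11 and 1.08 CPM in CREX mice (1.52 ± 0.71, adjusted p = 0.177), with EX 1 above CREX 2 and CREX 3. In the libraries CREX 2 and CREX 3 the hepatocyte scores were 0.0850 and 0.114, within the range of the control libraries, and their Gsta3 levels of 1.11 and 1.08 CPM were above all 4 controls. CREX 1 had a hepatocyte score of 1.83 and an adipocyte score of 4.80, and EX 1 an adipocyte score of 4.68. Adipocyte markers summed to 2841 CPM in CREX 2 and 2429 CPM in CREX 3, beside 1443 to 1676 CPM in control libraries. Their adipocyte scores were 3.01 and 3.49, beside 2.50 to 3.43 in control libraries. The part of either cell type in the Gsta3 levels was not tested.

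Of the other abundant members, Mgst3 had 204, 185, 205 and 205 CPM in EX and 176, 162 and 202 CPM in CREX mice, and Gstp1 had 142, 145, 165 and 176 CPM in EX and 126, 176 and 186 CPM in CREX mice. Gstp2 had 58.0, 52.8, 51.8 and 74.4 CPM in EX and 44.9, 70.7 and 72.8 CPM in CREX mice. The groups overlapped in these 3 genes, and CREX 1 was the lowest library for Gstp1 and Gstp2. Gstm5 had 53.1, 48.1, 54.2 and 59.8 CPM in EX and 55.6, 78.1 and 94.3 CPM in CREX mice, and Gstz1 had 35.2, 29.3, 28.9 and 33.3 CPM in EX and 34.1, 25.9 and 27.0 CPM in CREX mice. Sult1a1 and Gstt1, DEGs under CR, did not pass here: Sult1a1 had 19.4, 13.6, 23.2 and 12.1 CPM in EX and 27.6, 20.9 and 15.9 CPM in CREX mice (0.32 ± 0.26, adjusted p = 0.424), and Gstt1 had 6.56, 5.40, 6.25 and 4.16 CPM in EX and 5.98, 4.09 and 4.49 CPM in CREX mice (-0.21 ± 0.20, adjusted p = 0.504).

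This count too rested on single libraries. It was 8 without CREX 1, when Gstm1, Gstm5, Gstm7, Gstt2, Gstt3 and Mgst1 were called as well, 1 without EX 4, and 0 without CREX 2, CREX 3 or EX 2. Gsta4 lost its call without any one of CREX 2, CREX 3 and the 4 EX libraries (adjusted p from 0.0533 to 0.0758), and without CREX 2 its log2 fold change was -0.46.

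Cell type markers differed between these groups too. Muscle fibre markers (146206 to 165914 CPM in EX and 169263 to 219148 CPM in CREX) and adipocyte markers (1502 to 2406 and 2429 to 2841) were higher by summed CPM in every CREX library. The scores of adipocyte markers overlapped, at 2.74 to 4.68 in EX and 3.01 to 4.80 in CREX. Endothelial (303 to 382 and 145 to 273), fibroblast (354 to 531 and 303 to 351), brown adipocyte (565 to 626 and 329 to 467) and lymphocyte markers (0.294 to 0.803 and 0.129 to 0.270) were lower by summed CPM. The scores of brown adipocyte markers overlapped, at 2.54 to 2.80 in EX and 2.15 to 2.62 in CREX. In each library 2 or 3 of these 10 markers had no count, and Ucp1 was close to absent in SkM. Of the 7 lymphocyte markers, 2 or 3 had no count in EX and 3 to 5 in CREX libraries, so these sums lie near the counting limit. The part of these cell types in the results was not tested.

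In EX against control in SkM 0 of 18 members passed edgeR's test or DESeq2, with 1 at an unadjusted p under 0.05, beside 0.0775% of all 12907 genes. CREX against CR gave 0 of 21 by edgeR (0.00% of 13068 genes), with 4 at an unadjusted p under 0.05, and DESeq2 called 1, Gsta3. Without CREX 1 the edgeR count was 3, Gsta3, Gstm7 and Mgst1. The interaction passed for 0 of 21 members (0.00% of 13610 genes), with 5 at an unadjusted p under 0.05 and 0 by DESeq2, and for 2, Gstm7 and Mgst1, without CREX 1.

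Whether the tissues responded differently was tested directly. For the effect of CR, 5 of 26 members differed between BAT and SkM (adjusted p under 0.05, as for 7.58% of all 14369 genes). Mgst1, Mgst3 and Gstt2 had higher log2 fold changes in BAT than in SkM. The log2 differences were 0.89 ± 0.16, 1.06 ± 0.21 and 1.16 ± 0.25 SE (adjusted p = 0.00446, 0.00747 and 0.00987). Mgst1 rose under CR in BAT (0.34) and fell in SkM (-0.54). Gstz1 also had the higher log2 fold change in BAT (difference 0.59 ± 0.16, adjusted p = 0.0324). It did not pass without BAT CR 4, BAT control 1, BAT control 2, SkM CR 2, SkM control 1 or SkM control 2 (adjusted p from 0.0520 to 0.0759). Gsta3 had the larger effect in SkM (-4.03 ± 0.53, adjusted p = 0.000499), starting from the low control level given above. For Sult1a1, a DEG under CR in both tissues, the difference was 0.56 ± 0.22 and did not pass (adjusted p = 0.125).

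For CREX against EX, 6 of 25 members differed between the tissues, beside 5.58% of all 14410 genes. Gstt2 (1.92 ± 0.26, adjusted p = 0.00384), Mgst3 (0.93 ± 0.15, adjusted p = 0.00601), Gsto1 (0.72 ± 0.13, adjusted p = 0.00800) and Mgst1 (1.52 ± 0.33, adjusted p = 0.0203) were on the BAT side. Gsta4 was also on the BAT side (0.72 ± 0.19, adjusted p = 0.0429) and Gstm2 on the SkM side (-1.04 ± 0.28, adjusted p = 0.0427), but of the 15 libraries only BAT EX 4 or SkM CREX 1 could be left out without ending the call of Gsta4 (adjusted p from 0.0503 to 0.112 otherwise), and only SkM CREX 1 or SkM EX 3 without ending that of Gstm2 (0.0527 to 0.114 otherwise). Without SkM CREX 3 the count was 3, and Mgst1 had an adjusted p of 0.0577. Gstt2 and Mgst3 passed in both tests of tissue and in both BAT comparisons, and in none of the 4 SkM comparisons.

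The remaining members were too low for testing in BAT: Gsta1, Gsta2, Gstm3, Gstt4, Sult1d1, Sult1e1, Sult2a8, Sult2b1, Sult6b1, Ugt1a1, Ugt1a5, Ugt1a9, Ugt2a3, Ugt2b1, Ugt2b34, Ugt2b35, Ugt2b36 and Ugt2b5. Most are liver enzymes, such as Ugt1a1, which conjugates bilirubin, and the Ugt2b genes, which conjugate steroids and bile acids. Summed over these 18 genes, 7 of the 29 libraries held 1.86 CPM or more: SkM CR 2 (13.9), CR 3 (8.26) and CR 1 (1.86), SkM CREX 1 (1.98), BAT CR 3 (3.5), BAT EX 2 (3.08) and BAT CREX 4 (1.88). The other 22 libraries held at most 1.08 CPM. The same 7 libraries had the highest summed CPM of the 12 hepatocyte markers, from 46.4 to 292 CPM, while the others had at most 8.25 CPM. They belong to 5 of the 8 groups and include no control library. The sum over the 18 genes includes Gstm3, Ugt1a9 and Ugt2b35, which reached the count minimum only with the counts of CR SkM. In SkM CR 2 these held 0.813, 0.813 and 1.03 CPM, so part of its sum follows from the choice of members.

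Ugt2b5 had 0.391, 2.61 and 1.66 CPM in CR SkM and at most 0.10 CPM in control SkM, and Sult2a8, of the steroid and bile acid sulfotransferase family, had 0.147, 1.92 and 1.29 CPM beside at most 0.05 CPM. Ugt1a1 had no count in any control SkM library and was at least 5.93-fold higher in CR SkM, taking 3 counts per library as the limit. In all of these genes CR 1, with the lowest hepatocyte score of the CR libraries, was also the lowest. Sult1e1, the estrogen sulfotransferase, did not follow this order: its highest value was 0.776 CPM in SkM CREX 3, where the hepatocyte score was 0.114.

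**Figure D5:**
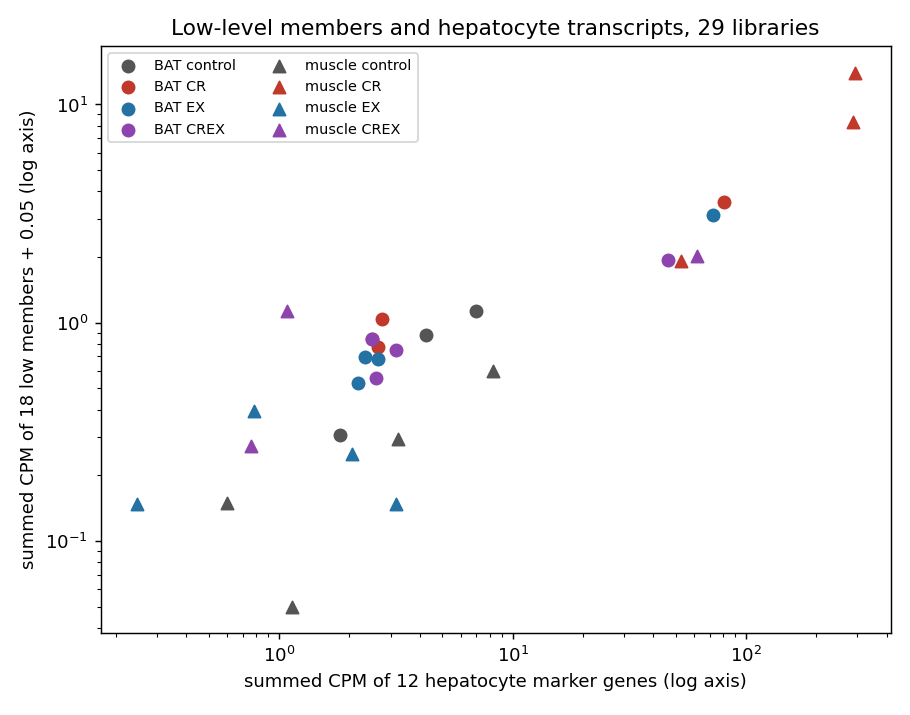
Summed CPM of the 18 members too low for testing in BAT, plus 0.05, against the summed CPM of 12 hepatocyte marker genes, both on log axes, for 29 libraries (circles BAT, triangles muscle, colours by group). The 7 libraries at 46.4 CPM of hepatocyte markers or more are also the 7 highest on the vertical axis. The sum includes Gstm3, Ugt1a9 and Ugt2b35, which reached the count minimum only with the counts of CR muscle.

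The genes around the conjugation step were read from lists of other genes, to be set beside the shares of all genes tested: 3.87% up and 6.86% down for CR in BAT, 1.86% and 2.63% for CREX against EX in BAT, 4.27% and 5.32% for CR in SkM, and 3.70% and 5.17% for CREX against EX in SkM. These lists are short, so that 1 gene moves a share by several percentage points. Among 18 genes of glutathione synthesis and recycling, 2 of 14 tested were upregulated by CR in BAT: Gclm, a subunit of the enzyme that limits glutathione synthesis (0.75 ± 0.12 SE, adjusted p = 0.00192), and G6pdx, which supplies NADPH (0.72 ± 0.10, adjusted p = 0.000815). None was called under CREX in BAT. In SkM Ggt7 and Chac1, a glutathione-degrading enzyme, were upregulated by CR (1.21 and 0.97, adjusted p = 0.00751 and 0.0108), and Ggt7 and Dpep1 under CREX (1.07 and 0.77, adjusted p = 0.0243 and 0.0168).

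Of 11 tested NRF2 target genes outside the conjugating families, Gclm and Ephx1, microsomal epoxide hydrolase (0.85 ± 0.19, adjusted p = 0.0178), were upregulated by CR in BAT and none under CREX. In SkM none of 11 was called under CR, and Ephx1 was downregulated under CREX (-0.61, adjusted p = 0.0347). The effect of CR differed between the tissues for 6 of 11 NRF2 targets, beside 7.58% of all genes. Each of the 6 had the higher log2 fold change in BAT, and the median difference of the 11 genes was 0.63. Srxn1, sulfiredoxin, had a log2 difference of 0.98 ± 0.19 (adjusted p = 0.00581), from 0.44 in BAT and -0.53 in SkM. Nqo1, a quinone reductase, had one of 1.08 ± 0.22 (adjusted p = 0.00799), from 0.60 and -0.47. Gclc, the catalytic subunit that Gclm joins, had one of 0.58 ± 0.14 (adjusted p = 0.0200), from 0.53 and -0.04. For CREX against EX 0 of 11 differed between the tissues, beside 5.58% of all genes. The glutathione list also holds Gclm. Of its 16 tested genes, 4 differed with the higher log2 fold change under CR in BAT and 1 with the higher value in SkM. For CREX against EX these counts were 0 and 1 of 16. Of the sensing receptors and regulators, 12 tested per comparison, the 1 call was the glucocorticoid receptor Nr3c1 in SkM, CREX against EX (0.63 ± 0.17, adjusted p = 0.0386). Nfe2l2, which encodes NRF2, had log2 fold changes of 0.07 in BAT and 0.40 in SkM under CR (adjusted p = 0.629 and 0.132).

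Of the conjugate export pumps, Abcc2 and Abcg2 were upregulated by CR in BAT (2.30 ± 0.49 and 0.74 ± 0.20, adjusted p = 0.00889 and 0.0319) and Abcg2 again under CREX (0.69 ± 0.16, adjusted p = 0.0298), with no call in SkM. Enzymes that conjugate other groups gave 3 upregulated genes of 12 under CR in each tissue. They were Inmt, Gnmt and Acsm5, with log2 fold changes of 1.31, 1.39 and 0.96 in BAT (adjusted p = 0.00114, 0.00386 and 0.00511) and 1.49, 2.60 and 4.26 in SkM (adjusted p = 0.000322, 0.000166 and 0.00437). Inmt and Gnmt are methyltransferases and Acsm5 is an acyl-CoA synthetase family member. Acsm5 was upregulated under CREX in BAT too (1.36 ± 0.23, adjusted p = 0.00808), and As3mt, an arsenic methyltransferase, was downregulated by CR in SkM (-0.70, adjusted p = 0.00760). In SkM the hepatocyte scores given above apply to these genes as well, and their part was not tested.

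Few genes that supply the other 2 donors were called. No gene of the sulfate donor list was called in any of these 4 comparisons (8 tested, 9 of 11 in the table), and of 8 genes for UDP-glucuronate only Ugp2, which makes UDP-glucose, was called, lower under CR in SkM (-0.61, adjusted p = 0.0195). Among relatives of the same protein folds outside the 4 families, Clic4 and Clic1 were downregulated by CR in BAT (-0.94 ± 0.07 and -0.67 ± 0.11, adjusted p = 5.62e-05 and 0.00195) and Clic4 under CREX (-0.67, adjusted p = 0.00126), while Gdap1 was downregulated by CR in SkM (-0.67, adjusted p = 0.0356).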

How the data were processed

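Total RNA of BAT and gastrocnemius was sequenced as paired-end reads. Per the methods of the study, the authors trimmed the reads, mapped them with STAR 2.7.10a to mm10 and counted them with RSEM. What the authors deposited are RSEM expected counts per gene symbol, not normalized, and the annotation behind them is not given in the sources used here. Of the values, 6.11% were not whole and all were rounded. The submitters' processing notes also name RSEM 1.2.28.

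The 43 members were read off fits over all genes. Each comparison was fitted on its own groups with edgeR 4.0.16 (robust quasi-likelihood, TMM, filterByExpr, Benjamini-Hochberg adjustment) in R 4.3.3, and a DEG needed a fold change over 1.5 with an adjusted p below 0.05. Interactions and tissue differences needed adjusted p under 0.05 alone. Standard errors are the log2 fold change divided by the square root of F. As the labels say only that libraries are separate samples, p-values measure the spread between these libraries. CPM used the TMM factors of all 29 libraries, and levels per kb the exon length of GENCODE vM21. Coordinates and promoters come from RefSeq (GRCm38.p6). Marker scores are means of log2(CPM + 1). Intervals of 3 counts cover counting error only.

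Alternatives were DESeq2 1.42.0, RLE size factors, no count filter, 1 fit per tissue, the replicate block, no fold minimum, marker scores as covariates, summed near-identical genes and each library left out. The scripts were tested on simulated data. Full statistics were given to members called within a tissue, and values by library to these and to the 5 members of highest level per kb in either tissue. The members, gene lists and alternatives were chosen with earlier results of these data known.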

Additional observations from a re-analysis of the deposited data

Results flagged for a closer look

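In 16 members named in the report, 80 groups of 4 libraries were examined for a library far from the other 3 (Dixon's test), and 7 were found. Chance alone gives about 1 in 20 groups. In EX SkM, library 1 stood apart for Gsta3 (1.42 CPM, others 0.10 to 0.294) and for Ugt1a6a (1.08 CPM, others 0 to 0.0977), and its adipocyte score was 4.68, beside 2.74 to 2.88 in the other EX libraries. In EX SkM, library 2 was low for Mgst3 (185 CPM, others 204 to 205). In control SkM, library 4 was low for Gstp1 (132 CPM, others 167 to 171), and library 3 had the only reads of Mgst2 (0.0977 CPM, others at 0). In BAT, Gstp2 was high in CREX 3 (8.18 CPM, others 5.08 to 5.53) and Gstt1 in EX 2 (16.1 CPM, others 12.3 to 12.8), and EX 2 also carried hepatocyte transcripts (score 2.20). The part of these transcripts was not tested.

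The effect of CR differed between BAT and SkM by the test of the difference itself for Gsta3 (log2 difference, BAT minus SkM, -4.03), Gstt2 (1.16), Mgst3 (1.06), Mgst1 (0.89) and Gstz1 (0.59). That of CREX against EX differed for Gstt2 (1.92), Mgst1 (1.52), Gstm2 (-1.04), Mgst3 (0.93), Gsta4 (0.72) and Gsto1 (0.72).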

How the results depend on the processing

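No called result changed sign under any alternative, and 35 of 48 called member results stayed called under all of them. Of these 48, 20 are calls between the tissues of control mice. Within a tissue, some alternative ended the calls of Sult1a1, Ugt1a6a and Ugt1a7c in BAT CREX against EX. The same held for Gstt1 and Sult1a1 in SkM CR against control, and for both calls, Gsta4 and Gstm2, in SkM CREX against EX. Without a fold minimum the number of members called rose from 6 to 16 in BAT CR against control, from 5 to 8 in BAT CREX against EX and from 2 to 4 in SkM CREX against EX. In SkM CR against control it rose from 4 to 13 with DESeq2, 14 without the count filter and 8 with the hepatocyte score as a covariate. DESeq2 and the unfiltered fit there added genes such as Ugt2b5, Ugt1a1 and Sult2a8, since fewer low genes are removed. In SkM CREX against EX it was 4 in the fit over all groups, 7 with the hepatocyte score and 4 with the adipocyte score. In SkM CREX against CR DESeq2 called 1 in place of 0. Without the libraries carrying hepatocyte transcripts (an alternative chosen after seeing the data, as was leaving out those with muscle transcripts), BAT CREX against EX gave 2. Leaving out each library gave 6 to 8 (BAT CR), 2 to 7 (BAT CREX against EX), 3 to 13 (SkM CR), 0 to 8 (SkM CREX against EX), 0 to 3 (SkM CREX against CR), 0 to 2 (SkM interaction) and 3 to 9 (tissue difference of CREX against EX). The causes were not tested.

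Groups share replicate numbers, but in no comparison did every same-numbered pair deviate together (mean correlation -0.302 to 0.146), so the numbers are not taken as a pairing. With the replicate block the counts were 6 in BAT CR, 4 in BAT CREX against EX, 3 in SkM CR, 2 in SkM CREX against EX (Gsta4 no longer called, adjusted p = 0.0539, and Mgst1 called), 20 between the tissues, and 4 and 5 for the tissue differences of CR and of CREX. At this depth, members under 3 counts per library (0.110 to 0.150 CPM) cannot be told from absence, and groups of 3 or 4 mice limit the precision of the rest.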
